A study of Mus musculus with 24 samples.

Results

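The genes described here are 50 genes of mitosis and chromosome segregation, chosen by name for their role, though with earlier results of these data known. They were followed in splenic conventional CD4+ T cells (Tconv, the CD25-negative fraction of CD4+ cells) from conplastic mice. Their nuclear genome is that of C57BL/6J in both strains, and they have either their own mitochondrial DNA (mtDNA B6) or that of the NZB strain (mtDNA NZB). Cells of each haplotype were taken at rest or after culture with CD3/CD28 beads and IL-2 for several days (activated). There were 6 libraries in each of the 4 groups and 24 in all. Most experiments of the study used young adult male mice, and the age and sex behind each library were not given in the labels. All 50 members were found by 1 identifier each among 55414 listed genes, and all 50 were among the 10566 genes that passed the filter on low counts. The comparisons ask how activation changed these genes in each haplotype, and whether the haplotypes differed in either state. The labels do not say that the libraries of a group came from separate mice, so the p-values measure the spread between these libraries.

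Mitosis begins when CDK1 bound to cyclin B is switched on, after which chromosomes condense and are captured by spindle microtubules at their kinetochores. The spindle assembly checkpoint holds back the anaphase-promoting complex (APC/C) until every chromosome is attached, and separase then cuts cohesin so that sister chromatids part. Naive T cells are out of cycle, and stimulation through CD3 and CD28 starts the rapid divisions of clonal expansion. Many mitotic genes are transcribed late in the cycle through promoters that carry a cell cycle genes homology region (CHR), which is bound by the DREAM and MuvB complexes.

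The letters TTTGAA of the CHR, read on both strands (TTCAAA on the other), were looked for in the 300 bases around each start site, from 250 before to 50 after it. They occurred in 27 of 50 members (54%), in 32 of 102 other mitosis genes (31.4%), in 3 of 38 DNA replication genes (7.89%) and in 3713 of 21757 protein-coding genes (17.1%). The letters CCAAT of the CCAAT box, another common promoter element, were sought in the same way on both strands, and occurred in 34 members (68%) against 39.9% of all protein-coding promoters. Both occurred in 23 members (46%) against 7.43% of all. The stretches below show the CHR letters in capitals, in GRCm39, 5′ to 3′ on the strand of the gene, for members that stand out in the results.
Cdk1, chr10:69188796-69188825, minus strand: ctgattggctccTTTGAAcgtctacgtgca
Kif23, chr9:61854062-61854091, minus strand: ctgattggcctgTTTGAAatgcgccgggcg
Racgap1, chr15:99549515-99549544, minus strand: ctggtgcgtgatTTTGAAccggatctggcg
Bub3, chr7:131162044-131162073, plus strand: gagccgttggcgTTCAAAatcagccaatga
Ube2c, chr2:164611808-164611837, plus strand: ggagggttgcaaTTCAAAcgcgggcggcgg
Top2a, chr11:98915021-98915050, minus strand: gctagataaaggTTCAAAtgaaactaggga
Smc4, chr3:68912052-68912081, plus strand: ttcctccagtttTTCAAAtgctgtcgttct
The capitals began 45 bases before the start site in Cdk1, 6 before it in Kif23, 26 before it in Bub3 and 7 before it in Smc4. They lay just after the start site in Racgap1, Ube2c and Top2a. Cdk1, Smc4 and Top2a each held a further match that is not shown. It began 11 bases after the start site in Cdk1, 25 before it in Smc4 and 153 before it in Top2a. Smc4 and Bub3, which are among the members with the smallest responses described below, held the letters as well. So did Pttg1, the only member that fell on activation, at 250 bases before its start site. The median log2 fold change on activation was 1.92 in mtDNA B6 cells for the 27 members with the letters and 2.15 for the 23 without, and 2.91 for both in mtDNA NZB cells. A match is only a run of letters and not a measured binding site.

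Libraries held 51409 to 6449395 UMI counts (counts of single molecules). Values are given as CPM, counts scaled to the size of the library, and each gene was read at its 3′ end. The smallest library, resting mtDNA NZB replicate 2, held 57 counts over all members, so 1 count there is worth 16.9 CPM. T cell markers were present in all groups, with summed levels of 3068 to 5420 CPM. Markers of granulocyte precursors (9 genes) and erythroid precursors (12 genes) were detected in every group. The lists include Camp, Ltf and the globin genes, and whether the cells that carried these markers were dividing was not measured. The marker sums reached 16236 and 7215 CPM in resting libraries, but at most 145 and 307 CPM in activated ones. In bulk samples, fewer cells of a type and less RNA per cell cannot be told apart.

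Activation raised nearly all of the 50 members in both haplotypes. Of the 50 members, 49 rose and 1 fell in mtDNA B6 cells (edgeR quasi-likelihood fit, adjusted p of at most 0.05 by Benjamini-Hochberg over every gene tested), where 22.4% of all genes tested rose and 24.5% fell. In mtDNA NZB cells 49 also rose and 1 fell, against 25.2% and 28.4% of all genes. The median log2 fold change of the members was 2.11 in mtDNA B6 and 2.91 in mtDNA NZB cells, against -0.03 for all genes tested in mtDNA B6 cells. The member that fell was Pttg1 in both. Markers of some other cell types rose as well: both CD8 T cell markers were called higher, with sums of 52.3 to 111 CPM at rest and 161 to 405 CPM after activation in mtDNA B6 libraries, and 16.9 to 142 and 82.0 to 534 CPM in mtDNA NZB libraries. Of 4 platelet and megakaryocyte markers, 3 were tested and 2 rose in each haplotype, with sums of 8.27 to 53.4 and 72.5 to 504 CPM in mtDNA B6 and 10.54 to 50.8 and 18.0 to 244 CPM in mtDNA NZB libraries. Ppbp was at 0 in resting mtDNA B6 libraries, and the part of these cells in the rise was not tested.

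Summed over the 50 members, the level was 1150 to 2416.5 CPM in resting and 5025 to 7296 CPM in activated mtDNA B6 libraries. It was 956 to 2233 CPM in resting and 4808 to 8301 CPM in activated mtDNA NZB libraries. Resting and activated libraries did not overlap in either haplotype. Where a resting and an activated library carried the same number in the labels, the activated one was 2.53 to 5.03 times higher in 5 mtDNA B6 pairs and 2.15 to 7.91 times higher in 4 mtDNA NZB pairs.

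**Figure D1:**
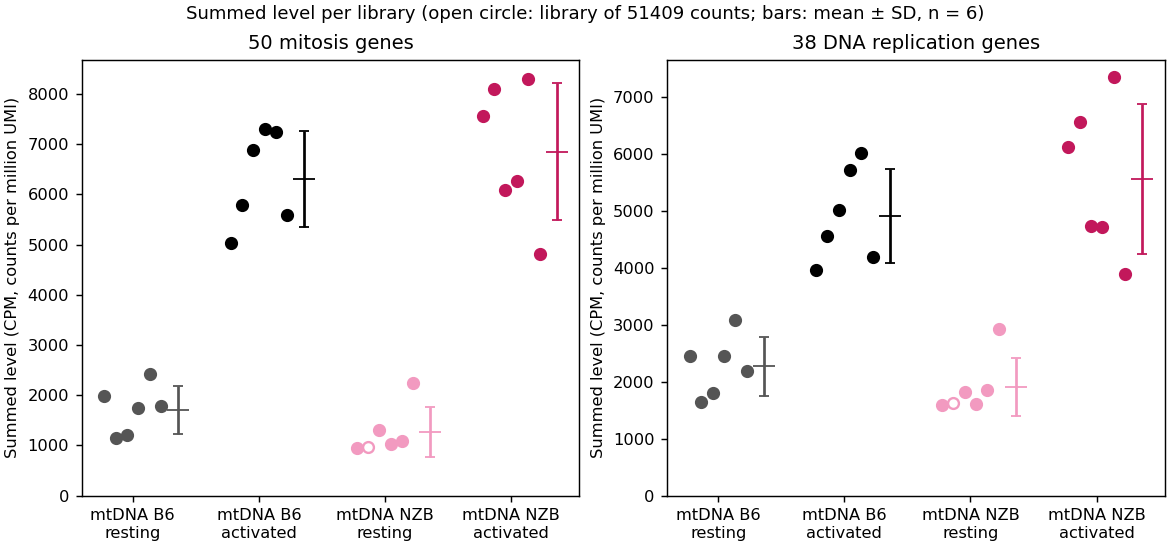
Summed level in CPM (vertical axis, from 0) of the 50 mitosis genes (left) and of 38 DNA replication genes (right) in each of the 24 libraries, by group, with mean ± SD beside the points (n = 6). Every activated library lies above every resting one, and 1 resting mtDNA NZB library, at 2233 CPM on the left, stands above the other 5.

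By gene, all 6 activated mtDNA B6 libraries lay above all 6 resting ones for 48 members, where 15.4% of all genes did so, and below them for Pttg1, where 16.4% did. Only Anln overlapped. In mtDNA NZB cells 46 members were separated upward, against 11.9% of all genes, and Bub1, Pttg1, Smc4 and Ncapg overlapped. No member was separated downward there, against 6.95% of all genes.

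**Figure D2:**
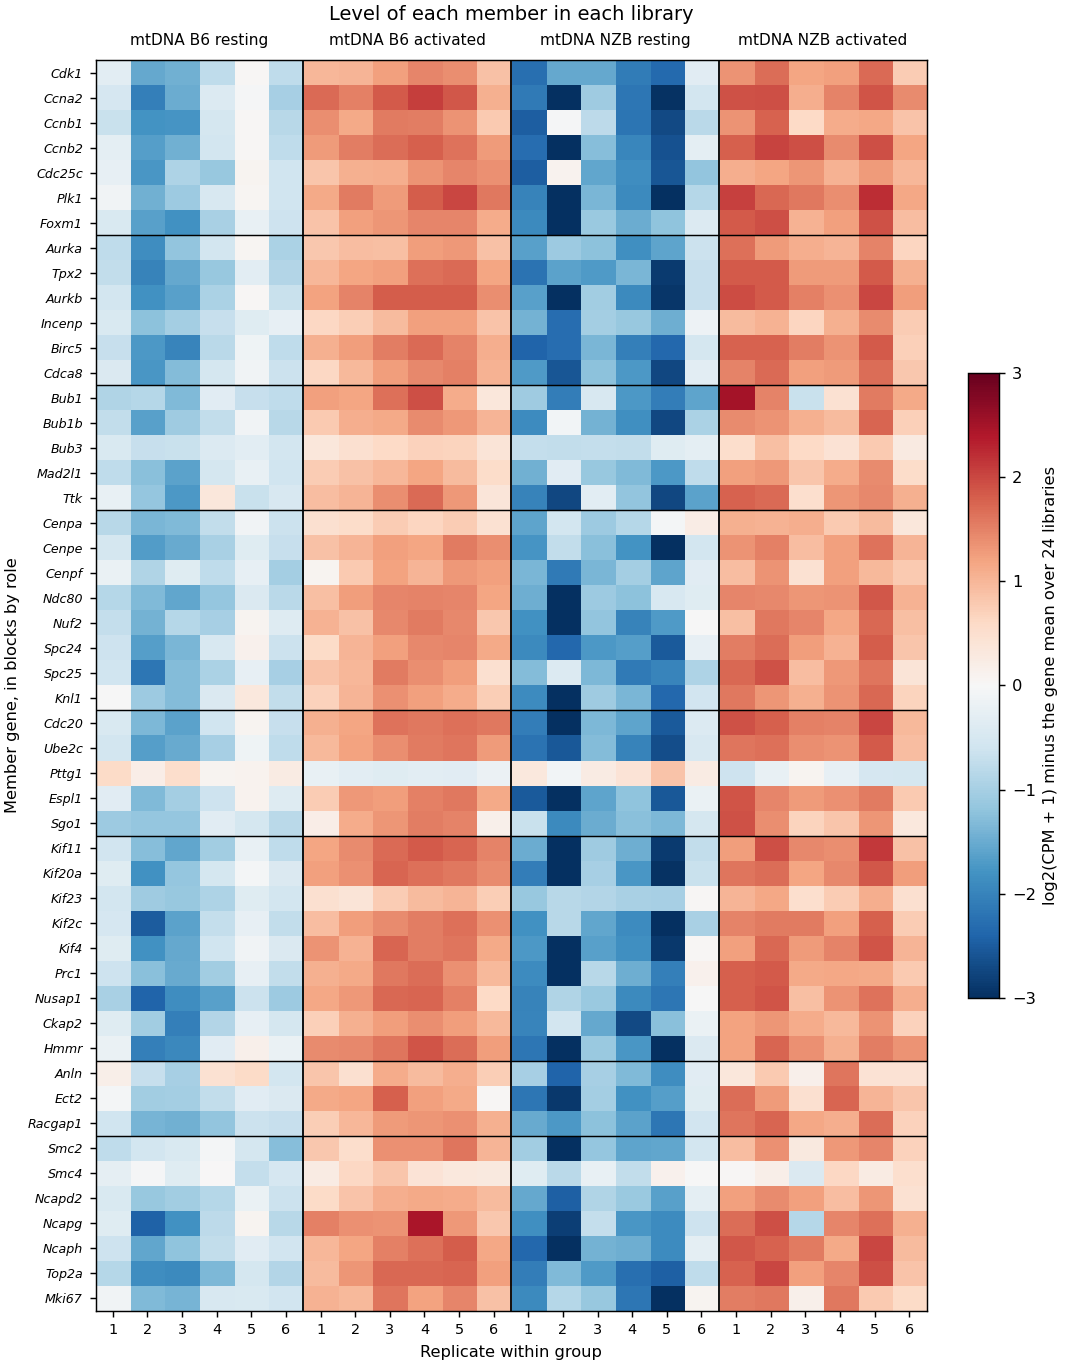
Level of each member (rows, in 8 blocks by role) in each of the 24 libraries (columns, 6 per group), as log2(CPM + 1) minus the mean of the gene over all libraries. Activated libraries are red and resting ones blue in nearly every row, Pttg1 runs the other way, and Bub3, Smc4, Cenpa and Kif23 are among the paler rows.

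The 7 genes of mitotic entry all rose. Cdk1 (ENSMUSG00000019942), the kinase that drives entry, was at 34.4, 58.9 and 104 CPM (lowest, median and highest) in resting and 187, 222 and 280 CPM in activated mtDNA B6 libraries. In mtDNA NZB libraries it was at 19.2, 28.4 and 79.1 CPM at rest and 171, 249 and 330.4 CPM when activated, so the states did not overlap in either haplotype. The log2 fold change of Cdk1 was 1.88 ± 0.28 (SE) in mtDNA B6 (adjusted p = 7.11e-06) and 2.88 ± 0.32 in mtDNA NZB cells (adjusted p = 5.05e-08). Ccna2, a cyclin of S phase and early mitosis, went from a median of 25.3 to 148 CPM in mtDNA B6 cells and from 8.84 to 142 CPM in mtDNA NZB cells. It had the largest response of this role in mtDNA B6 cells, 2.49 ± 0.31 (adjusted p = 4.84e-07), and reached 3.27 ± 0.36 in mtDNA NZB cells (adjusted p = 4.42e-08). Ccnb1 and Ccnb2, which encode the B-type cyclins, Plk1, a mitotic kinase, Foxm1, a transcription factor of late-cycle genes, and Cdc25c, a phosphatase that activates CDK1, rose by 1.91 to 2.21 in mtDNA B6 and 2.81 to 3.49 in mtDNA NZB cells on the log2 scale.

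The 6 genes of the Aurora kinases and the chromosomal passenger complex, which corrects faulty attachments, all rose. Cdca8, which encodes borealin, went from 30.8, 69.9 and 98.0 CPM at rest to 162, 235 and 301 CPM in mtDNA B6 libraries. It went from 15.1, 31.4 and 84.3 CPM to 184, 277 and 343 CPM in mtDNA NZB libraries, again with no overlap. The log2 fold changes of Cdca8 were 1.87 ± 0.28 (adjusted p = 7.67e-06) and 2.77 ± 0.31 (adjusted p = 7.98e-08). Aurkb, the kinase of the complex, changed most in mtDNA B6 cells, by 2.43 ± 0.28 (adjusted p = 1.78e-07), and by 3.21 ± 0.32 in mtDNA NZB cells (adjusted p = 1.10e-08). Aurka and its activator Tpx2, Incenp, the scaffold of the complex, and Birc5, which encodes survivin, rose by 1.60 to 2.37 and 2.00 to 3.20.

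All 5 checkpoint genes rose. Bub3, which brings BUB kinases to kinetochores, rose least of these. It was at 87.4, 99.7 and 113 CPM at rest and 179, 205 and 229 CPM after activation in mtDNA B6 libraries. Bub3 rose by 1.04 ± 0.11 on the log2 scale in mtDNA B6 (adjusted p = 5.89e-08) and by 1.17 ± 0.12 in mtDNA NZB cells (adjusted p = 1.67e-08), with the smallest standard error of all members. Bub1, a checkpoint kinase, had the largest fold change of the role, 2.71 ± 0.46 (adjusted p = 2.80e-05) and 3.48 ± 0.57 (adjusted p = 1.49e-05). Its levels were low, with resting medians of 1.41 and 0.341 CPM and activated medians of 8.74 and 9.56 CPM, and its mtDNA NZB groups overlapped. Bub1b, Mad2l1 and Ttk, which encode the inhibitor BUBR1, MAD2 and the kinase MPS1, rose by 1.68 to 1.95 and 2.38 to 3.16.

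The 8 centromere and kinetochore genes rose by 1.38 to 2.31 in mtDNA B6 and 1.43 to 2.98 in mtDNA NZB cells. Cenpa, the histone H3 variant that marks centromeres, was already at 86.4, 130 and 210 CPM in resting and reached 306, 341 and 382 CPM in activated mtDNA B6 libraries. In mtDNA NZB libraries it was at 73.8, 138 and 264 CPM at rest and 284, 449 and 479 CPM when activated. Its log2 fold changes, 1.38 ± 0.23 (adjusted p = 3.04e-05) and 1.43 ± 0.24 (adjusted p = 2.44e-05), were the smallest of the role. Ndc80, the microtubule-binding subunit of the outer kinetochore, rose most in mtDNA B6 cells, by 2.31 ± 0.20 (adjusted p = 1.46e-09), and by 2.37 ± 0.22 in mtDNA NZB cells (adjusted p = 3.05e-09). The other subunits of its complex, Nuf2, Spc24 and Spc25, rose with it, as did Knl1, the checkpoint platform, Cenpe, a kinetochore motor, and Cenpf.

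Of the 5 genes of anaphase onset, 4 rose and Pttg1 fell. Ube2c, the ubiquitin-conjugating enzyme of the APC/C, was at 62.9, 110 and 185 CPM in resting and 397, 509 and 610 CPM in activated mtDNA B6 libraries. It was at 31.2, 46.0 and 144 CPM and at 386, 574 and 717 CPM in mtDNA NZB libraries. Its log2 fold changes were 2.19 ± 0.28 (adjusted p = 8.40e-07) and 3.05 ± 0.31 (adjusted p = 1.41e-08). Sgo1, the protector of centromeric cohesin, changed most in mtDNA B6 cells, by 2.56 ± 0.38 (adjusted p = 5.85e-06), from a median of 0.938 to 7.65 CPM. Cdc20, the mitotic activator of the APC/C, and Espl1, which encodes separase, also rose. Pttg1, which encodes securin, the inhibitor of separase, was at 57.6, 63.4 and 80.3 CPM at rest and 42.0, 43.3 and 47.5 CPM after activation in mtDNA B6 libraries, with no overlap. In mtDNA NZB libraries it was at 50.8, 66.2 and 98.1 CPM at rest and 34.5, 41.5 and 57.3 CPM after activation, and the groups overlapped. The overlap came from the smallest library, where Pttg1 had 3 counts, and without it the lowest resting value was 64.5 CPM. Its log2 fold change was -0.60 ± 0.13 (adjusted p = 0.00038) and -0.74 ± 0.13 (adjusted p = 4.83e-05).

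The 9 kinesins and spindle proteins rose by 1.5 to 2.77 and 1.61 to 3.27. Nusap1, which bundles spindle microtubules, rose most of all members in mtDNA B6 cells, by 2.77 ± 0.32 (adjusted p = 1.55e-07), and by 2.76 ± 0.35 in mtDNA NZB cells (adjusted p = 3.95e-07). Its medians went from 12.2 to 88.0 CPM and from 11.1 to 93.1 CPM. Kif23, the motor of the central spindle, had the smallest changes of the role, 1.5 ± 0.19 (adjusted p = 4.46e-07) and 1.61 ± 0.20 (adjusted p = 3.15e-07). Kif11, which separates the spindle poles, Kif20a and Kif4, motors of the central spindle, Prc1, their microtubule crosslinker, Kif2c, a microtubule depolymerase, Ckap2 and Hmmr made up the rest.

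Among the 3 cytokinesis genes, Racgap1, a subunit of centralspindlin, went from 40.8, 59.3 and 74.8 CPM to 190, 258 and 295 CPM in mtDNA B6 libraries. It went from 24.3, 37.9 and 75.9 CPM to 183, 301 and 381 CPM in mtDNA NZB libraries. Its log2 fold changes were 2.11 ± 0.22 (adjusted p = 3.32e-08) and 2.72 ± 0.24 (adjusted p = 1.57e-09). Ect2, which activates RhoA at the cleavage furrow, rose by 1.92 and 2.94. Anln, the furrow scaffold anillin, rose by 1.05 ± 0.32 in mtDNA B6 cells (adjusted p = 0.00856), where its groups overlapped, and by 2.23 ± 0.40 in mtDNA NZB cells (adjusted p = 5.18e-05).

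The last 7 members act on chromosome structure. Top2a, the topoisomerase that untangles sister chromatids, was at 55.3, 98.5 and 146 CPM in resting and 411, 619 and 713 CPM in activated mtDNA B6 libraries. It was at 38, 57.4 and 125 CPM and at 386, 659 and 859 CPM in mtDNA NZB libraries, and rose by 2.63 ± 0.28 (adjusted p = 3.49e-08) and 3.31 ± 0.30 (adjusted p = 2.61e-09). Mki67, the proliferation marker that coats mitotic chromosomes, rose by 1.89 and 2.41. The condensin I subunits Ncapd2, Ncapg and Ncaph and the condensin ATPase Smc2 rose by 1.67 to 2.59 and 2.19 to 3.09. Smc4, the partner of Smc2 in condensin, was at 126, 169 and 211 CPM in resting and 248, 270 and 370 CPM in activated mtDNA B6 libraries. It rose by only 0.76 ± 0.17 (adjusted p = 0.000611) there and by 0.49 ± 0.17 (adjusted p = 0.0202) in mtDNA NZB cells, where the groups overlapped. The mtDNA NZB call of Smc4 was lost without activated mtDNA NZB replicate 4 (0.40) or 6 (0.42), or without resting mtDNA NZB replicate 4 (0.40). It was also lost with counts thinned to the second smallest library total (0.39), and in fits of 21 libraries or with a reads-per-UMI term, described below (0.35 to 0.53).

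**Figure D3:**
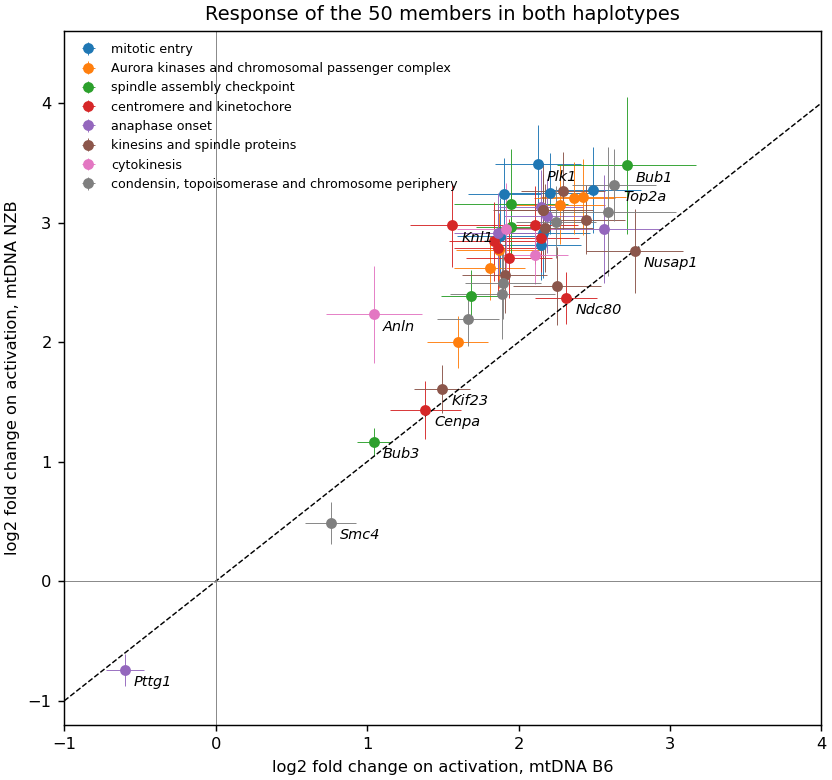
Log2 fold change on activation of each of the 50 members in mtDNA B6 cells (horizontal) and mtDNA NZB cells (vertical), coloured by role, with standard errors and a dashed line of equal response. Most points lie above the line, while Nusap1, Ndc80, Cenpa, Kif23, Bub3, Smc4 and Pttg1 lie near it.

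Of 102 other genes of mitosis, 95 were tested, and 68 rose and 0 fell in mtDNA B6 cells (75 had an unadjusted p under 0.05), with a median log2 fold change of 1.01. In mtDNA NZB cells 72 rose and 4 fell, with a median of 1.33. Of 17 genes of the APC/C core and its inhibitors, 8 rose in mtDNA B6 (median 0.33) and 10 in mtDNA NZB cells (median 0.51). Of 21 tested genes of entry and exit control, 14 and 17 rose, and 0 and 2 fell. Of 28 tested genes of the constitutive centromere and outer kinetochore, 25 and 24 rose. Among all genes 22.4% and 25.2% rose. All 15 tested genes of spindle and cytokinesis rose in both haplotypes, led by Pimreg, a regulator of the metaphase to anaphase transition, at 3.33 ± 0.25 (adjusted p = 1.33e-10) and 4.02 ± 0.29 (adjusted p = 5.15e-11). Of 11 cohesin genes, 3 rose in mtDNA B6 cells and 0 fell (4 had an unadjusted p under 0.05), while mtDNA NZB cells had 3 that rose and 2 that fell, shares of risers near those of all genes. The risers were Smc1a and Rad21, subunits of the ring, and Cdca5, which encodes sororin, and those that fell were Nipbl and Mau2, which load the ring (chosen after their values were seen). Of 37 DNA replication genes tested, 36 rose in each haplotype, with medians of 1.20 and 1.57. The exception was Cdt1, a licensing factor, at 0.00 ± 0.21 (adjusted p = 0.997) and -0.10 ± 0.21 (adjusted p = 0.710).

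At rest, 2 members were lower in mtDNA NZB than in mtDNA B6 cells and 0 were higher, where 0.861% of all genes tested were lower and 1.9% higher. These were Cdc25c and Plk1. A negative difference was seen for 44 of 50 members, against 5406 of 10566 genes. An unadjusted p under 0.05 was seen for 27 members, against 2196 of 10566 genes, and the median difference was -0.69 on the log2 scale, against -0.01 for all genes. No member had groups of libraries that did not overlap, against 0.398% (higher) and 0.738% (lower) of all genes. Cenpa, Ndc80, Kif23, Nusap1, Smc4 and Pttg1 had differences of 0.01 to 0.24.

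Plk1 (ENSMUSG00000030867) was at 28.1, 53.4 and 80.8 CPM in resting mtDNA B6 and 0, 19.3 and 42.6 CPM in resting mtDNA NZB libraries. The value of 0 was that of the smallest library, and the groups overlapped. The difference was -1.23 ± 0.31 (adjusted p = 0.0385). Cdc25c (ENSMUSG00000044201) was at 3.97, 8.96 and 16.7 CPM in mtDNA B6 and 1.83, 4.17 and 16.9 CPM in mtDNA NZB libraries, and the highest of these was 1 count in the smallest library. Its difference was -1.39 ± 0.31 (adjusted p = 0.0298). Cdk1 differed by -0.84 ± 0.31 (adjusted p = 0.114) and did not pass.

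The count of lower members turned on single libraries. Without resting mtDNA NZB replicate 6 it was 26 of 50 with a median of -1.03, where 3.46% of all genes were lower and 1.48% higher. That library had the highest member sum of its group, 2233 CPM, and the next had 1307 CPM. Leaving it out lowers the mean member sum of resting mtDNA NZB cells, so fits without it are no separate evidence of a difference. Leaving out replicate 1, 3, 4 or 5 of resting mtDNA B6, or replicate 5 of resting mtDNA NZB, gave 0. In these 5 fits the differences kept their direction, at -1.14 to -1.47 for Cdc25c and -1.02 to -1.34 for Plk1. Leaving out replicate 6 of resting mtDNA B6 gave 1, its replicate 2 gave 5, and replicate 3 of resting mtDNA NZB gave 3. Over the 21 libraries that remain without replicates 2 and 6 of resting and replicate 6 of activated mtDNA NZB, 26 members were lower, where 3.88% of all genes were lower and 2.24% higher. When 3 sets of libraries, made from the reads per UMI, were added as a term over these 21, 18 members were lower, where 2.54% of all genes were lower and 0.674% higher. Without mtDNA NZB replicate 6, Cdk1 was at -1.36 ± 0.26, Plk1 at -1.54 ± 0.31 and Mki67 at -1.28 ± 0.34, while Cenpa was at -0.02 ± 0.23. The library left out was also the highest of its group for Cdk1 itself, at 79.1 CPM.

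**Figure D4:**
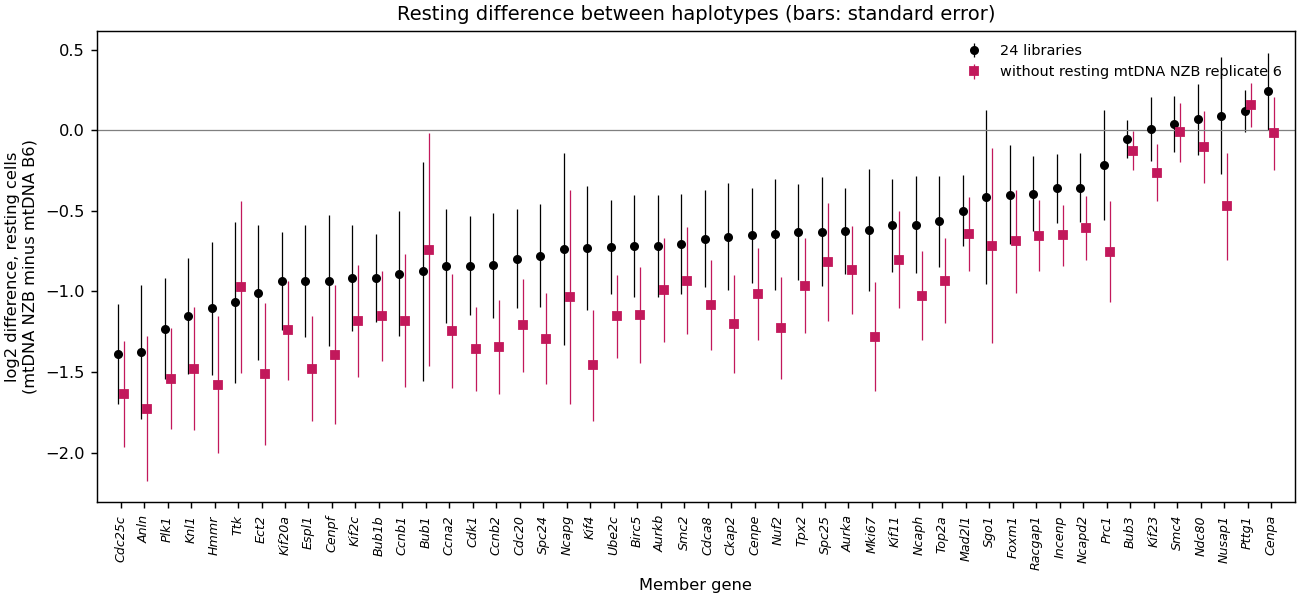
Log2 difference between resting mtDNA NZB and mtDNA B6 cells (vertical) for each member, ordered by its value over 24 libraries (black circles), and without resting mtDNA NZB replicate 6 (magenta squares), with standard errors. Most squares lie below their circles, and the genes at the right end stay near 0.

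Precursor markers were highest in the resting libraries with the highest member levels, and monocyte and macrophage markers were high in most of these. All 9 granulocyte and all 12 erythroid precursor markers were detected in both resting groups, and none was at 0. The granulocyte sum was 575 to 7006 CPM in mtDNA B6 and 391 to 16236 CPM in mtDNA NZB libraries, and the erythroid sum was 674 to 7215 and 254 to 4062 CPM. The 5 resting libraries with the highest member sums, 4 of mtDNA B6 and replicate 6 of mtDNA NZB, were also the 5 with the highest precursor sums. Below them the orders differed, and mtDNA NZB replicate 3 had rank 6 by member sum and rank 10 by precursor sum. Monocyte and macrophage sums were 2636 CPM in mtDNA NZB replicate 6 and 2508, 2203 and 1630 CPM in mtDNA B6 replicates 5, 6 and 1. They were at most 1250 CPM in the other resting libraries, which include mtDNA B6 replicate 4 (822 CPM). Over the 12 resting libraries the median difference of the members was -0.68, and it was -0.18 with the precursor level as a term in the fit. The number of members with a negative difference went from 44 to 40, and those with an unadjusted p under 0.05 from 12 to 5. With or without the term, 0 members passed after adjustment. Median precursor sums were 5848 CPM in resting mtDNA B6 and 1143 CPM in resting mtDNA NZB libraries. The highest sum, 20298 CPM, was in mtDNA NZB replicate 6. The ranges of these sums overlapped, at 1332 to 11794 CPM in mtDNA B6 and 685 to 20298 CPM in mtDNA NZB libraries. Because the medians differed by haplotype, this fit, chosen after seeing the data, cannot separate precursor level from haplotype. The part of precursor cells in the difference at rest was not tested.

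**Figure D5:**
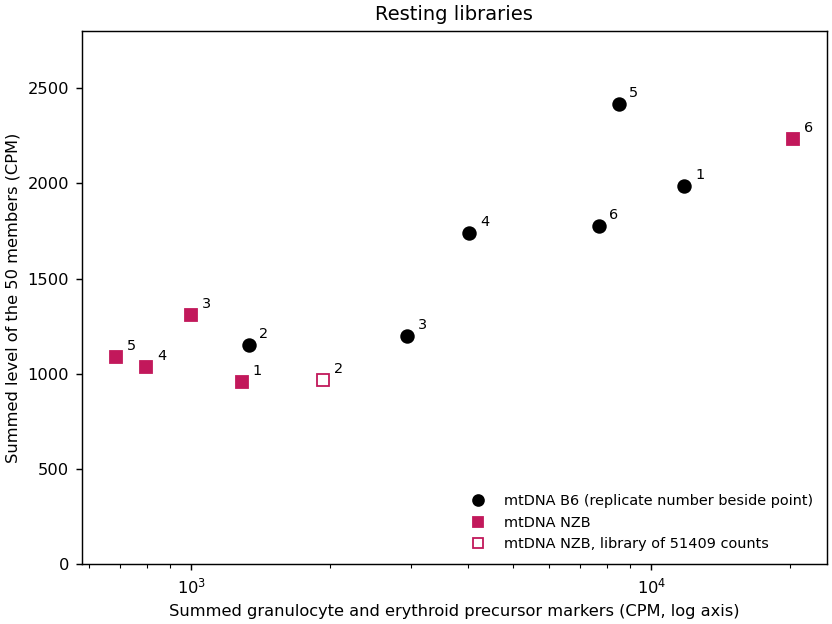
Summed level of the 50 members (vertical, CPM) against the summed granulocyte and erythroid precursor markers (horizontal, CPM, log axis) in the 12 resting libraries, with the replicate number beside each point. The 5 highest libraries on the vertical axis are the 5 farthest to the right.

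After activation the haplotypes were close. No member passed for a difference by haplotype in activated cells, and 0.0% of all genes did in either direction (edgeR quasi-likelihood test). No member, and 327 of 10566 genes, had an unadjusted p under 0.05. The member differences ran from -0.24 (Ncapg) to 0.29 (Cenpa) with a median of 0.09. For Cdk1 the 95% interval of the difference was -0.39 to 0.73, and for Bub3, with the smallest standard error, it was -0.16 to 0.30. Intervals of members at low levels were wider, at -0.90 to 0.68 for Bub1 and -0.56 to 0.84 for Ttk, so larger differences in single members remain possible. No member had groups that did not overlap, against 0.0284% of all genes in each direction.

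The difference of the activation response between haplotypes was tested as an interaction. No member passed, as for 0.0% of all genes in either direction, although 18 members had an unadjusted p under 0.05, against 1512 of 10566 genes. The response was larger in mtDNA NZB cells for 47 of 50 members and for 5516 of 10566 genes. The median difference was 0.77, against 0.02 for all genes, and the lowest adjusted p was 0.207. Plk1 had a difference of 1.36 (adjusted p = 0.21) and Nusap1 of -0.01. Both responses use the same resting libraries as the comparison at rest, so these values are not separate from it. Over the 21 libraries named above, which lack resting mtDNA NZB replicate 6, 10 members passed with a larger response in mtDNA NZB cells. Of all genes, 0.878% passed with a larger and 0.166% with a smaller one. With the reads-per-UMI sets as a term over these 21, 0 members passed. The sets were spread unevenly over the 24 libraries. The set with the fewest reads per UMI held 5 activated and 0 resting mtDNA B6 libraries, and 2 activated and 1 resting mtDNA NZB libraries. The set with the most held 0 and 2, and 2 and 4. The term therefore overlaps with state and haplotype, and the fit cannot fully separate them.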

How the data were processed

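RNA of 24 Tconv libraries was measured by bulk MARS-seq, a 3′-end method with unique molecular identifiers (UMIs). Per the labels and the study's methods, the authors trimmed reads with cutadapt, mapped them with STAR to 3′ regions of GRCm39, counted them with HTSeq, and deposited UMI-corrected counts and a second, larger count table. Tool versions were not given in the sources used here. The labels and the methods differ in RNA kit and input. Strand was not named in the counting: 10 of 50 members overlap another gene in their last 1000 bases, 1 of them, Foxm1, on the same strand. A count column that named a Treg library (1 column) matched no sample and was not used.

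Counts were fitted with edgeR 4.0.16 in R 4.3.3 (TMM scaling, filterByExpr, 4 groups in 1 fit, quasi-likelihood test, Benjamini-Hochberg adjustment over 10566 genes, adjusted p of at most 0.05, no fold cut-off). The study used DESeq2, which served as an alternative (1.42.0). The standard error is the log2 fold change divided by the square root of F. On simulated data for activation in mtDNA B6 cells over 10566 genes, 82% of 100 genes changed 2-fold and 96% of 100 changed 4-fold were recovered, with 12 false calls. Replicates differed by more than sampling noise (lowest chi-square over its degrees of freedom 2.97). Start sites came from GENCODE mouse release 39. The members and lists were chosen with earlier results of these data known. Named in full were, in each role, the member of highest mean CPM and that of largest fold change in mtDNA B6 cells, and members called lower or different between haplotypes. Others were named for their role or for standing apart, after their values were seen. Some promoter stretches are not reported here.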

Additional observations from a re-analysis of the deposited data

Results flagged for a closer look

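Of 104 groups of 6 libraries examined, 6 had a highest or lowest library far from the rest by Dixon's criterion, and chance gives about 1 in 20. Resting mtDNA NZB replicate 6 stood above the other 5 of its group in 5 of these: the summed level of all members (2233 CPM), of kinesins and spindle proteins (224 CPM) and of the condensin, topoisomerase and chromosome periphery genes (513 CPM), Cdk1 (79.1 CPM) and Kif23 (62.6 CPM). The same library had the highest granulocyte precursor sum (16236 CPM) and neutrophil sum (5003 CPM) of the resting libraries. The other was Cdc25c in resting mtDNA NZB replicate 2 (16.9 CPM), which was 1 count.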

How the results depend on the processing

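The counts of members that rose on activation stayed within 1.5 times under every alternative run, and 49 (mtDNA B6) and 48 to 49 (mtDNA NZB) rose without any single library. The single member that fell, Pttg1, fell without any single library (1 to 1 in both haplotypes), but the count was 0 in both when a log2 fold change of 1 was also needed, and 0 in mtDNA B6 cells over 21 libraries with the reads-per-UMI set (3 sets of libraries by the ratio of the 2 tables' totals) as a term. The count lower at rest, 2, was 0 with the second count table, with the libraries of the comparison alone, with the replicate block by title number, with the reads-per-UMI set, and in the resting libraries with or without the precursor term. The differences of Cdc25c (-1.40, -1.37, -1.38 and -1.49) and Plk1 (-1.23, -1.23, -1.21 and -1.29) stayed close to their values of -1.39 and -1.23 in the first 4 of these, and were -0.83 and -0.74 with the precursor term. It was 26 over 21 libraries (those that the study's tabulated group means correspond to, without resting mtDNA NZB replicates 2 and 6 and activated replicate 6), 18 with the set added, and 0 to 26 without single libraries. The count with a larger response in mtDNA NZB cells, 0, was 10 over 21 libraries, and 0 when the set or the replicate block by label number was added. Other counts were 0 without any single library. The cause was not tested. The 21-library fits with added terms and the precursor term were chosen after seeing the data.

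Deviations of libraries with the same label number correlated at -0.16 to 0.25 over 9 pairs, above 0.1 in 3 of 5 mtDNA B6 and 0 of 4 mtDNA NZB pairs, and the labels do not say whether a number marks a mouse. With the replicate block by label number 49 members rose and 1 fell in each haplotype, with medians of 2.00 and 2.57, and with the block by title number the counts were again 49 and 1. The label number block could not be fitted between haplotypes. Of single-member results, 37 lost their call and 3826 did not, all 37 being of Pttg1, Smc4, Cdc25c or Plk1, and none reversed.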
